A study of Danio rerio with 6 samples.

Results

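The Id genes and the homeobox genes vox, vent and ved, a set of 8 zebrafish genes known as targets of BMP signalling in the embryo, were examined in sorted juvenile germ cells with and without foxl2l. Members were the rows of the deposited gene table named id1, id2a, id2b, id3, id4, vox, vent or ved. All 8 names were present among 31743 genes, and all 8 passed the filter on low counts. The foxl2l-/- group consisted of 3 libraries of the genotype foxl2l:egfp;foxl2l-/-, and the foxl2l+/+ group of 3 libraries of the genotype foxl2l:egfp;foxl2l+/+. Both groups were TL-strain fish at 21 days post fertilization and carried the same foxl2l:egfp reporter, and each library was labelled as germ cells of the gonad. About 300 EGFP-positive cells were sorted from dissociated trunks for full-length cDNA amplification and sequencing, and the protocol's wording leaves unclear whether that number is per library or per genotype. The labels state neither the lesion in the foxl2l-/- allele nor how many fish contributed to a library. Replicates are therefore separate libraries, and p-values measure only the spread between them, which may be partly technical.

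BMP ligands bind pairs of serine/threonine kinase receptors, which phosphorylate Smad1, Smad5 and Smad9, and these enter the nucleus with Smad4 and act on target genes. Id genes are among the most widely shared direct targets of this pathway in vertebrates. Id proteins contain a helix-loop-helix but no DNA-binding region, and they hold E proteins, the general partners of tissue-specific bHLH factors, in pairs that cannot bind DNA. Vox, Vent and Ved are homeodomain repressors that act redundantly in the ventral zebrafish gastrula, where they repress dorsal organizer genes, and their expression there is maintained by BMP signalling. In the mouse testis, ID4 marks spermatogonia with stem cell activity.

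The members were chosen by their counts and TPM in these same libraries, with the difference between the genotypes known, so their values are given as a description and carry no test of their own. Levels are TPM, the authors' values scaled for gene length and depth, unless stated otherwise. Each fold change is a log2 ratio, foxl2l-/- to foxl2l+/+, from the edgeR fit to the counts of all tested genes, and a gene passed where its Benjamini-Hochberg adjusted p in that fit was below 0.05. Total counts were 36292276 to 38405954 in foxl2l-/- libraries and 25176401 to 39189535 in foxl2l+/+ libraries, the lowest being foxl2l+/+ replicate 3. Germ cell markers summed to 3780 to 5410 TPM in foxl2l-/- and 3740 to 4400 TPM in foxl2l+/+ libraries. Of these 9 markers, 1 rose, 2 fell and 6 did not pass, with ddx4 and piwil1 the most abundant and neither passing. Among all tested genes 15.7% passed as higher and 15.8% as lower. Nanos3 rose (1.01 ± 0.28 SE, adjusted p = 0.0163). Dnd1 (-0.53 ± 0.18 SE, adjusted p = 0.0387) and ca15b (-3.20 ± 0.43 SE, adjusted p = 0.000191) fell. The foxl2l transcript itself was at 2380, 2080 and 1910 TPM in foxl2l-/- and 959, 1100 and 1390 TPM in foxl2l+/+ libraries, and passed as higher (0.64 ± 0.20 SE, adjusted p = 0.0263), a call that ended without replicate 1 or 2 of either genotype (adjusted p up to 0.105). With the allele's lesion not given, its level is no check of the labels.

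All 5 Id genes were higher in foxl2l-/- cells. Id1 was at 121, 109 and 114 TPM in foxl2l-/- replicates 1 to 3, against 6.11, 7.84 and 4.59 TPM in foxl2l+/+ replicates 1 to 3. The lowest foxl2l-/- library was 14 times the highest foxl2l+/+ library, and the foxl2l-/- libraries differed among themselves by a factor of only 1.11. Its log2 fold change was 3.95 ± 0.28 (SE), a 15.4-fold difference. Id1 is the family member most often used as a readout of BMP signalling.

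Id4 was at 47.1, 55.4 and 56.2 TPM in foxl2l-/- libraries, against 5.08, 5.91 and 13.6 TPM in foxl2l+/+ libraries. Foxl2l+/+ replicate 3 stood above the other 2 libraries of its group but still below every foxl2l-/- library, and its raw count of 238 for id4 exceeded the 130 and 168 of the deeper foxl2l+/+ libraries. The log2 fold change of id4 was 2.45 ± 0.35 (SE) with all libraries and 3.01 without foxl2l+/+ replicate 3.

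Id2a and id2b, zebrafish duplicates of a single ancestral Id2 gene, differed less between the genotypes. Id2a was at 66.5, 65.9 and 56.3 TPM in foxl2l-/- libraries, against 19.4, 23.4 and 15.0 TPM in foxl2l+/+ libraries. Id2b was at 49.6, 53.8 and 65.4 TPM in foxl2l-/- libraries, against 10.8, 14.4 and 15.5 TPM in foxl2l+/+ libraries. For neither gene did the genotypes overlap. The log2 fold changes were 1.45 ± 0.24 for id2a and 1.78 ± 0.24 for id2b (SE). Id3 was at 25.8, 23.7 and 28.1 TPM in foxl2l-/- libraries, against 7.01, 7.39 and 4.30 TPM in foxl2l+/+ libraries, with a log2 fold change of 1.79 ± 0.32 (SE). It had the lowest level of the family in foxl2l-/- cells.

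The homeobox genes were at 2.48 TPM or less in every foxl2l+/+ library. Vox was at 36.8, 53.3 and 38.3 TPM in foxl2l-/- libraries, against 1.76, 1.2 and 2.48 TPM in foxl2l+/+ libraries. Its log2 fold change of 4.33 ± 0.30 (SE), or 20.1-fold, was the highest of the members and ranked at position 47 from the top of 23576 tested genes. Vent was at 14.8, 12.6 and 13.8 TPM in foxl2l-/- libraries, against 1.23, 0.951 and 0.562 TPM in foxl2l+/+ libraries. The log2 fold change of vent was 3.65 ± 0.35 (SE), and the lowest foxl2l-/- library was 10.2 times the highest foxl2l+/+ library.

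Ved was the scarcest member and the least certain. It received 120, 154 and 45 counts in foxl2l-/- libraries, against 19, 17 and 7 in foxl2l+/+ libraries, which gave 5.09, 6.72 and 2.30 TPM in foxl2l-/- and 0.864, 0.697 and 0.465 TPM in foxl2l+/+ libraries. The 7 counts of foxl2l+/+ replicate 3 have an exact Poisson 95% interval of 2.81 to 14.4, which covers counting error only. Foxl2l-/- replicate 3 was the lowest of its group by a wide margin, but it lay above every foxl2l+/+ library. The log2 fold change was 2.55 ± 0.62 (SE) with all libraries and 2.90 without foxl2l-/- replicate 3.

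**Figure D1:**
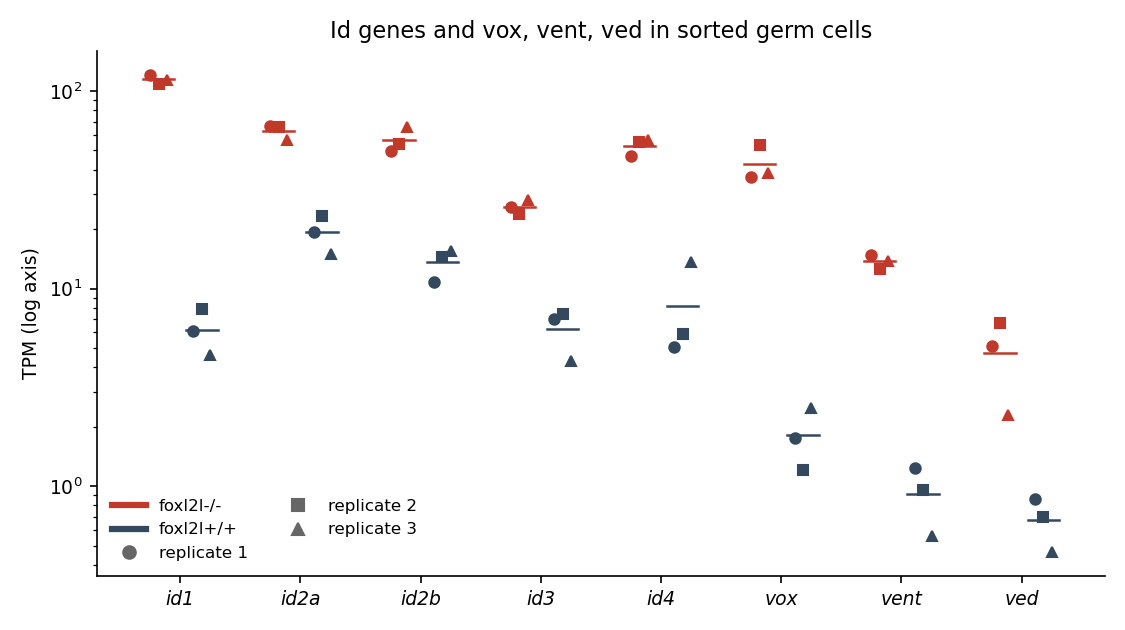
TPM of each member in each library on a log axis, with foxl2l-/- libraries in red at the left of each pair, foxl2l+/+ libraries in dark blue at the right, and a bar at the group mean. The groups do not overlap for any member, and the gap is widest for id1 (109 to 121 against 4.59 to 7.84 TPM) and vox (36.8 to 53.3 against 1.2 to 2.48 TPM).

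All 8 members passed in the fit and were higher in foxl2l-/- cells. Among all 23576 tested genes 31.6% passed in either direction and 15.7% passed and were higher. These were 3710 genes higher and 3733 lower, a split that became 4882 higher and 2723 lower with library totals and 5326 higher and 2652 lower with limma-trend on TPM. Nothing is read from the members' count, because this contrast chose them. For every member the lowest foxl2l-/- library exceeded the highest foxl2l+/+ library, both in TPM and in TMM-scaled CPM. CPM is a count scaled for depth but not for gene length. In TMM-scaled CPM 23.9% of tested genes shared this arrangement, while 22.8% showed the reverse. The matching shares in TPM were not counted, so these 2 are no background for the TPM ranges. The fold changes spanned a wide range within the set. A log2 fold change at least as high as that of id2a, the lowest member, was found for 11.4% of tested genes, whereas id1 ranked at position 94. Since these are sorted cells in bulk, more expressing cells and more RNA per cell cannot be told apart.

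**Figure D2:**
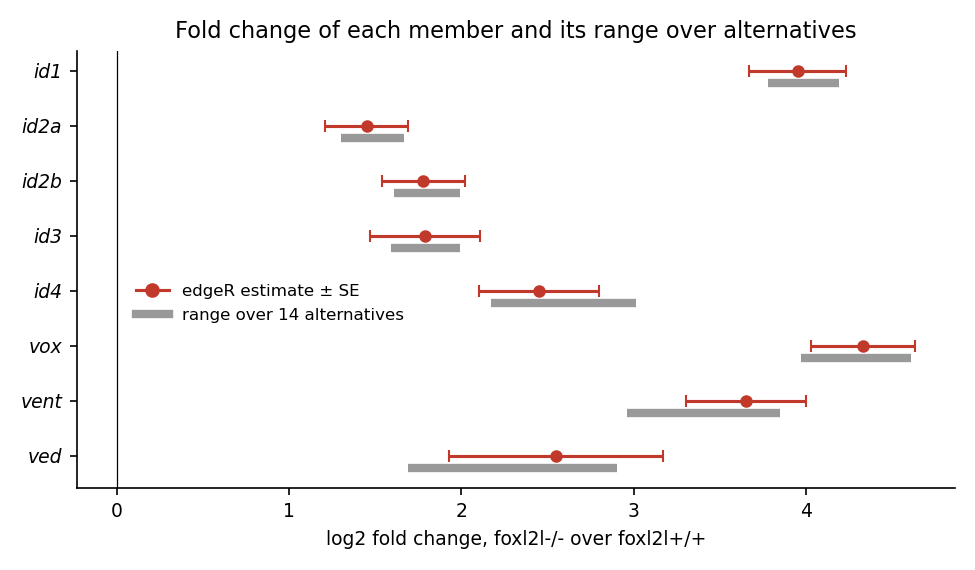
Log2 fold change of foxl2l-/- over foxl2l+/+ for each member with its SE (red), and the range of the estimate over 14 alternatives (grey bar). The alternatives are other processing choices and fits that each drop 1 library. Vox and id1 lie near 4, id2a, id2b and id3 lie between 1 and 2, and no range reaches 0.

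The family was not raised evenly, so the Id gene with the highest mean level differed by genotype. Summed over the 5 Id genes, the level was 310, 308 and 320 TPM in foxl2l-/- libraries and 48.4, 59.0 and 53.0 TPM in foxl2l+/+ libraries. Of this sum, id1 made up 36.7% ± 1.99 in foxl2l-/- cells and 11.5% ± 2.50 in foxl2l+/+ cells (SD, n = 3 each). The share of id2a was 20.2% ± 2.22 in foxl2l-/- cells and 36% ± 6.70 in foxl2l+/+ cells (SD, n = 3 each). In order of mean TPM, foxl2l-/- cells ran id1, id2a, id2b, id4, vox, id3, vent, ved, whereas foxl2l+/+ cells ran id2a, id2b, id4, id3, id1, vox, vent, ved. In foxl2l-/- cells the ranges of id2a and id2b, of id2b and id4, and of id4 and vox overlapped between neighbours in that order, and the other neighbours were separate. In foxl2l+/+ cells only id1 and vox were separate neighbours, and all others overlapped.

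Vox, vent and ved together summed to 56.6, 72.6 and 54.4 TPM in foxl2l-/- libraries and 3.85, 2.85 and 3.51 TPM in foxl2l+/+ libraries. Vox held 64.9%, 73.4% and 70.4% of that sum in foxl2l-/- libraries. In foxl2l+/+ libraries it held 45.7%, 42.1% and 70.7%, so the third foxl2l+/+ library had a vox share within the foxl2l-/- range at a far lower total. That library received 106 counts of vox, against 110 and 83 in replicates 1 and 2, but only 27 of vent, against 86 and 74.

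**Figure D3:**
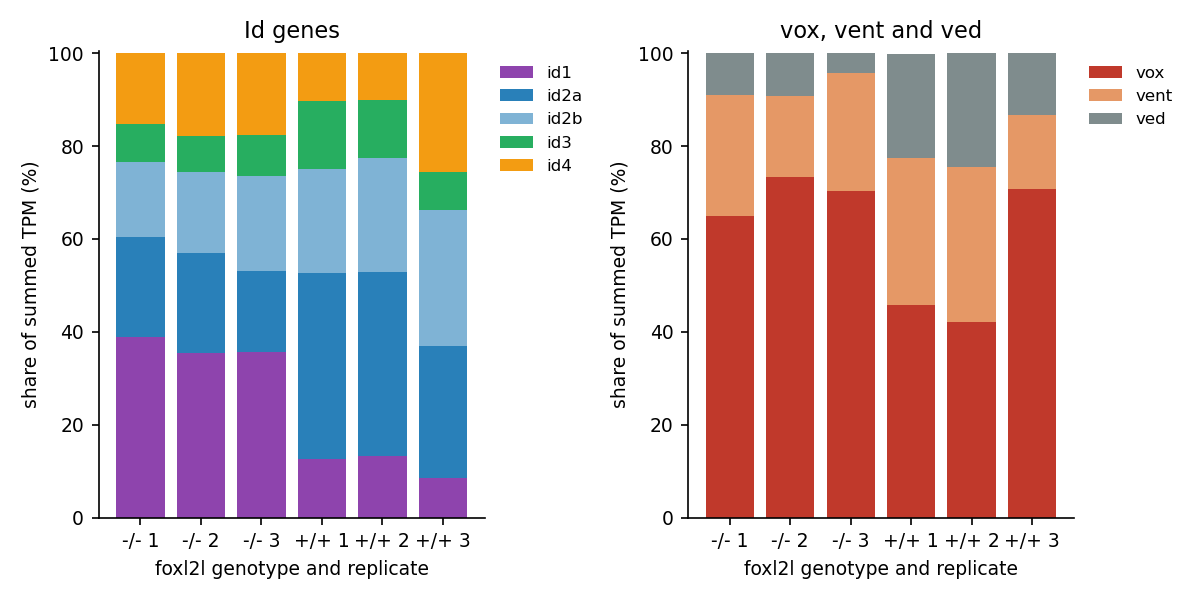
Share of the summed TPM (%) of the 5 Id genes (left) and of vox, vent and ved (right) held by each gene in each library, foxl2l-/- replicates first. Id1 holds 35.5% to 39% of the Id sum in foxl2l-/- libraries and 8.67% to 13.3% in foxl2l+/+ libraries.

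Against all genes with a TPM above 0 in some library, the level of id1 exceeded 93.9% of genes in foxl2l-/- and 63.8% in foxl2l+/+ cells. For vox these shares were 86.0% in foxl2l-/- and 45.5% in foxl2l+/+ cells, and for ved 56.2% in foxl2l-/- and 30.7% in foxl2l+/+ cells. A TPM of vox and vent rested on 2.89 and 3.24 times as many counts as a TPM of id1, since TPM is scaled for gene length.

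Id genes are also active in endothelium, connective tissue and epithelia, so markers of other cell types were read beside them. Among all tested genes 15.7% passed as higher and 15.8% as lower, and the marker counts stand beside those shares. Endothelial markers summed to 17.9 to 24.0 TPM in foxl2l-/- and 18.2 to 25.2 TPM in foxl2l+/+ libraries, a range that overlapped. Of these 14 genes 1 rose (plvapa), 2 fell (etv2 and tek) and 11 did not pass, with a median log2 fold change of 0.47. Fibroblast markers summed to 65.0 to 71.7 TPM in foxl2l-/- and 88.9 to 95.6 TPM in foxl2l+/+ libraries, with 2 of 11 rising, 4 falling and a median of 0.40. Epithelial and skin markers summed to 95.9 to 140 TPM in foxl2l-/- and 194 to 316 TPM in foxl2l+/+ libraries, with 4 of 11 rising and 2 falling. The 2 that fell, epcam and cdh1, were the most abundant, at 142 and 72.8 TPM in foxl2l+/+ cells, and held most of that sum. The median of the list was 1.05. The 4 that rose were krt4 (log2 fold change 3.44 ± 0.95 SE), krt8 (1.42 ± 0.30 SE), cldni (1.40 ± 0.39 SE) and tp63 (0.70 ± 0.25 SE). Tp63 passed narrowly (adjusted p = 0.0492) and is also counted in the list of BMP-responsive genes below. Krt4 was low, at 1.34 TPM in foxl2l-/- and 0.0993 TPM in foxl2l+/+ cells. Whether the epithelial genes that rose bear on the Id levels was not tested.

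Some marker sums were higher in foxl2l-/- cells, as the members were. Somatic gonad markers summed to 57.8 to 67.1 TPM in foxl2l-/- and 33.4 to 37.3 TPM in foxl2l+/+ libraries, and muscle markers to 180 to 216 TPM in foxl2l-/- and 136 to 155 TPM in foxl2l+/+ libraries. Of 15 tested somatic gonad genes 1 rose (cyp17a1) and 2 fell, and of 12 muscle genes 3 rose and 1 fell. Among these, the call of cyp11a1 as lower ended in 6 of 14 alternatives, and that of pvalb2 as higher in 4. The other muscle genes that rose were myl1 (3.24 ± 0.35 SE, adjusted p = 4.44e-05) and tpma (1.15 ± 0.26 SE, adjusted p = 0.00514). Myl1 averaged 21.2 TPM in foxl2l-/- and 1.9 TPM in foxl2l+/+ cells. The muscle gene that fell was atp2a1 (-1.47 ± 0.33 SE, adjusted p = 0.00482). The median log2 fold change was -0.20 for the somatic gonad list and 0.41 for the muscle list. Of the somatic gonad sum, cyp17a1 alone gave 42.5, 23.1 and 30.1 TPM in foxl2l-/- and 10.1, 9.57 and 4.93 TPM in foxl2l+/+ libraries. Blood and immune markers summed to 142 to 195 TPM in foxl2l-/- and 165 to 491 TPM in foxl2l+/+ libraries, with 2 of 13 tested rising and 5 falling. The 5 that fell were the red blood cell genes hbaa1, hbba1_1, hbba1_2, alas2 and slc4a1a. Those that rose were the immune genes ptprc (2.36 ± 0.42 SE, adjusted p = 0.00123) and cd74b (2.02 ± 0.32 SE, adjusted p = 0.000593). The immune genes coro1a, mpx, lyz and cd74a did not pass. The 491 TPM is that of foxl2l+/+ replicate 1, which stood apart through its globin genes hbaa1, hbba1_1 and hbba1_2, at 128, 113 and 137 TPM. Foxl2l+/+ replicates 2 and 3, at 165 and 173 TPM, lay within the foxl2l-/- range, and the call of hbba1_1 as lower ended without replicate 1 (adjusted p = 0.191). No gene of the marker lists was at 0 in every library, although 5 of 18 somatic gonad genes and 4 of 14 endothelial genes stayed below 1 TPM in all of them. The part of the somatic gonad, muscle and immune signals in the Id and vox levels was not tested.

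The members lie on 6 chromosomes in GRCz11, and vent and vox are neighbours. Vent (chromosome 13, 50607664 to 50614639) and vox (chromosome 13, 50621840 to 50624743) are both on the reverse strand with 7200 bases between them. Since they are related copies and the handling of reads matching several genes is not given in the sources used here, reads could be split between them. On the reverse strand also lie id1 (chromosome 11, 18704191 to 18705303), id4 (chromosome 16, 9977858 to 9980402) and ved (chromosome 10, 44997062 to 45002196). Id3 (27271399 to 27273296, reverse strand) and id2a (34805897 to 34808165, forward strand) share chromosome 17 at a distance of 7532600 bases, and id2b is on chromosome 20 (29784927 to 29787210, reverse strand).

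Overlapping genes on the other strand touch id1 and ved, and the cDNA chemistry does not record strand. The whole span of id1 lies within CU207354.1 on the forward strand, which received 105, 99 and 84 counts in foxl2l-/- and 100, 120 and 74 in foxl2l+/+ libraries. It did not pass (log2 fold change -0.39 ± 0.41 SE, adjusted p = 0.504). Id1 counts were 2670%, 2490% and 2610% of those of CU207354.1 in foxl2l-/- libraries and 132%, 157% and 91.9% in foxl2l+/+ libraries. How many of the id1 counts came from CU207354.1 was not tested. For ved, 1391 bases or 27.1% of the span overlap the histone variant gene h2afvb, which received 27822 to 41535 counts in foxl2l-/- and 25893 to 37101 in foxl2l+/+ libraries. Ved counts were 0.431%, 0.436% and 0.108% of those of h2afvb in foxl2l-/- libraries and 0.0697%, 0.0458% and 0.0270% in foxl2l+/+ libraries. H2afvb did not pass (-0.16 ± 0.20 SE, adjusted p = 0.574). How many of the ved counts came from h2afvb was not tested.

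Within 50 kb of the members, 17 other genes could be tested, of which 4 rose, 1 fell and 12 did not pass, with a median log2 fold change of 0.11 against 0.05 for all tested genes. The shares passing among all genes were 15.7% higher and 15.8% lower. Each Id2 duplicate has a Kidins220 gene, encoding a membrane scaffold of neurotrophin signalling, beside it. Kidins220b, 1282 bases from id2b, rose by 1.05 ± 0.26 on the log2 scale (SE, adjusted p = 0.00955), to 10.7, 10.1 and 14.6 TPM in foxl2l-/-, against 3.61, 5.97 and 4.52 TPM in foxl2l+/+ libraries. Kidins220a, 1477 bases from id2a, was at 0.488 to 0.803 TPM in foxl2l-/- and 0.765 to 0.788 TPM in foxl2l+/+ libraries and did not pass (-0.55 ± 0.37 SE, adjusted p = 0.279).

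On the other side of id2a, 138 bases away on the reverse strand, the unnamed gene CR385035.1 rose by 2.0 ± 0.65 on the log2 scale (SE, adjusted p = 0.0333). It received 108, 79 and 75 counts in foxl2l-/- and 9, 12 and 25 in foxl2l+/+ libraries. Its call ended when replicate 1 or 2 of either genotype was left out, with adjusted p between 0.0647 and 0.108, and its estimate was 2.87 without foxl2l+/+ replicate 3. The only tested gene within 50 kb of vent or vox, apart from each other, was the B cell adaptor gene blnk, which did not pass (0.15 ± 0.51 SE, adjusted p = 0.853). The gene that fell was il1b, an inflammatory cytokine gene near ved (-1.83 ± 0.21 SE, adjusted p = 5.96e-05).

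**Figure D4:**
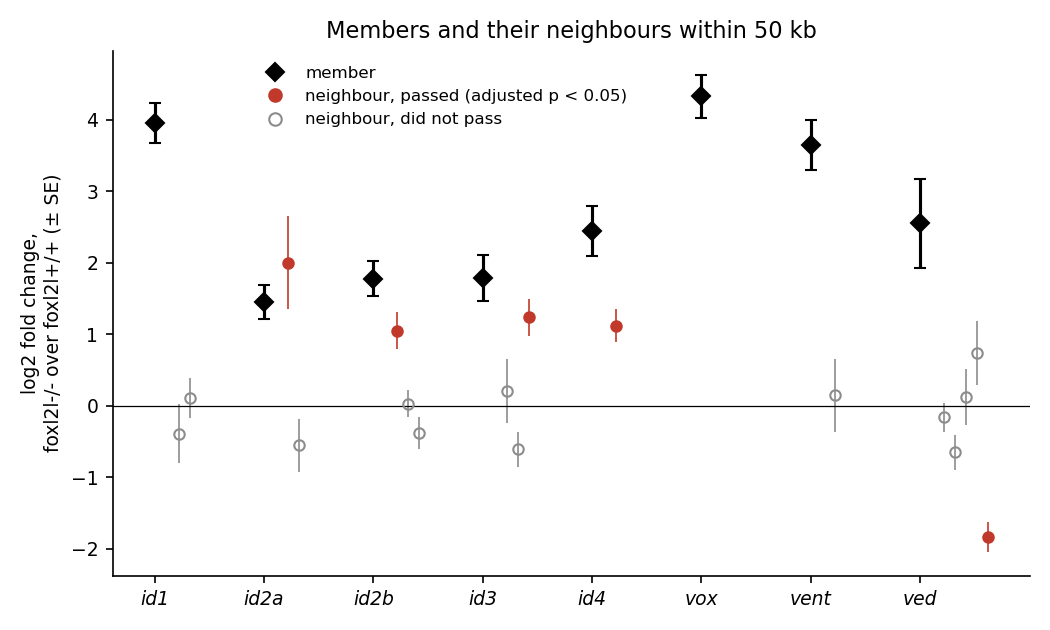
Log2 fold change with SE of each member (black diamonds) and of the tested genes within 50 kb of it, in order of distance from the member (filled red circles passed, open grey circles did not). The highest neighbours are CR385035.1 beside id2a at 2.0 and si:ch1073-358c10.1 near id3 at 1.24, and the lowest is il1b near ved at -1.83.

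Upstream of these targets, BMP ligand genes went both ways, with 5 of 12 tested rising, 1 falling and 6 not passing. The median was 0.68, against 0.05 for all tested genes. As shares, 41.7% rose and 8.33% fell, against 15.7% and 15.8% of all tested genes. The lists of pathway and partner genes were drawn up with earlier results of these data known. Bmp2b, which patterns the ventral embryo, was at 14.9, 15.6 and 20.6 TPM in foxl2l-/-, against 1.4, 0.684 and 0.693 TPM in foxl2l+/+ libraries, so the groups stood far apart. It rose by 3.94 ± 0.38 (SE, adjusted p = 1.80e-05), close in size to id1. Bmp4 rose by 1.2 ± 0.29 (SE, adjusted p = 0.00796), to 8.61 ± 1.34 TPM in foxl2l-/- against 3.15 ± 0.566 TPM in foxl2l+/+ cells (SD, n = 3 each).

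Among the other ligands, bmp2a rose by 1.46 ± 0.38 (SE), to 8.01 ± 1.70 TPM in foxl2l-/- against 2.40 ± 0.177 TPM in foxl2l+/+ cells (SD, n = 3 each). Gdf6b rose by 3.34 (SE 1.0) at low counts, 85, 26 and 59 in foxl2l-/- and 10, 0 and 3 in foxl2l+/+ libraries. Leaving out foxl2l-/- replicate 1 or foxl2l+/+ replicate 3 ended its call, at adjusted p of 0.0847 and 0.0647. Its estimate was 4.58 without foxl2l+/+ replicate 1, 2.71 without foxl2l+/+ replicate 2 and 1.17 with limma-trend on TPM. The call of bmp6 ended in 6 of 14 alternatives. Bmp8a, whose mouse homologues act in spermatogenesis, fell by 1.81 ± 0.36 (SE, adjusted p = 0.00243), to 8.12 ± 4.07 TPM in foxl2l-/- against 23.6 ± 1.69 TPM in foxl2l+/+ cells (SD, n = 3 each). Bmp7a, the partner of Bmp2b in embryonic heterodimers, did not pass, with 4.14 TPM in foxl2l-/- and 1.96 TPM in foxl2l+/+ cells (0.81 ± 0.32 SE, adjusted p = 0.073).

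Of the 19 receptor, co-receptor and Smad genes 5 rose, 0 fell and 14 did not pass in edgeR, with a median of 0.24. The share that rose was 26.3%, against 15.7% higher and 15.8% lower among all tested genes. At an unadjusted p below 0.05, 1 was lower in edgeR, and the count passing as lower was 0 in DESeq2, 1 in limma-voom and 0 in limma-trend. The receptor gene acvrl1, known from vascular endothelium, rose by 2.49 ± 0.39 (SE, adjusted p = 0.000574), to 6.63, 4.87 and 9.60 TPM in foxl2l-/- against 0.736, 1.22 and 1.15 TPM in foxl2l+/+ libraries. Of the Smads that carry the BMP signal, smad1 rose by 1.38 ± 0.25 (SE, adjusted p = 0.00137) and smad9 by 1.01 ± 0.21 (SE, adjusted p = 0.00378). Smad5 was the most abundant at 124 ± 49.9 TPM in foxl2l-/- and 86.8 ± 7.68 TPM in foxl2l+/+ cells (SD, n = 3 each) and did not pass. For both smad1 and smad9, foxl2l-/- replicate 3 was the highest library. The receptor gene bmpr1bb rose by 1.66 ± 0.53 (SE, adjusted p = 0.0307), but its estimate without foxl2l-/- replicate 3 was 0.79 (adjusted p = 0.214), and limma-voom gave 1.07 (adjusted p = 0.0725). Its call also ended without any 1 foxl2l+/+ library (adjusted p up to 0.12). Bmpr2b rose by 1.59 ± 0.54 (SE, adjusted p = 0.0401), a call that ended without any 1 library except foxl2l-/- replicate 3 (adjusted p up to 0.168), and its estimate was 0.67 with limma-trend on TPM.

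Antagonists and inhibitory factors of the pathway counted 3 higher, 2 lower and 16 not passing of 21 tested, with a median of 0.32. That was 14.3% higher and 9.52% lower, against 15.7% and 15.8% of all tested genes. The pseudoreceptor gene bambia, itself induced by BMP signalling, was at 55.5, 46.5 and 78.4 TPM in foxl2l-/-, against 10.8, 11.8 and 13.4 TPM in foxl2l+/+ libraries. It rose by 2.06 ± 0.24 (SE, adjusted p = 8.08e-05), whereas its duplicate bambib was at 56.9 TPM in foxl2l-/- and 46.5 TPM in foxl2l+/+ cells and did not pass (0.05 ± 0.20 SE). The secreted antagonist gene sostdc1a fell by 2.44 ± 0.29 (SE, adjusted p = 9.07e-05), to 8.14, 8.63 and 9.37 TPM in foxl2l-/- against 40.7, 50.1 and 27 TPM in foxl2l+/+ libraries. The inhibitory Smad gene smad6b rose by 1.25 ± 0.34 (SE, adjusted p = 0.0144), a call that ended without foxl2l-/- replicate 3 or without foxl2l+/+ replicate 1 or 2 (adjusted p 0.0504 to 0.0605), while smad6a and smad7 did not pass, and the antagonist genes chrd and nog1 did not pass either. Fsta rose and twsg1a fell, with calls that ended without foxl2l+/+ replicate 2 (adjusted p = 0.0534) for fsta and without foxl2l+/+ replicate 3 (adjusted p = 0.0553) or with limma-trend on TPM (adjusted p = 0.0743) for twsg1a. Over the 4 lists of ligands, receptors, antagonists and responsive genes, with shared genes counted once, 18 passed as higher and 6 as lower. Lower calls numbered 11 without foxl2l-/- replicate 3, 12 with limma-voom and 4 with limma-trend on TPM. Shares are given for each list, against 15.7% higher and 15.8% lower among all tested genes. Nothing is read from the pooled count.

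Beyond the members, 28 other genes that respond to BMP in the zebrafish embryo were tested, and 7 rose, 3 fell and 18 did not pass, with a median of 0.37. They share bambia, bambib, the inhibitory Smads, bmper and szl with the antagonists. Of the 28 genes 25% rose and 10.7% fell, against 15.7% and 15.8% of all tested genes. The msx homeobox genes divided by copy. Msx3 rose by 2.55 ± 0.31 (SE, adjusted p = 9.01e-05), to 19.3, 13.8 and 23.5 TPM in foxl2l-/- against 2.52, 2.58 and 2.98 TPM in foxl2l+/+ libraries. Msx1a rose by 2.04 ± 0.28 (SE, adjusted p = 0.000251) and msx2a by 2.08 ± 0.46 (SE, adjusted p = 0.0049).

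The duplicates went the other way. Msx1b fell by 1.11 ± 0.20 (SE, adjusted p = 0.00142), to 29.8, 29.0 and 31.7 TPM in foxl2l-/- against 59.9, 46.6 and 58.7 TPM in foxl2l+/+ libraries. Msx2b, named after its values were seen, fell by 1.44 ± 0.40 (SE, adjusted p = 0.0159), a call that ended without foxl2l-/- replicate 1 or 2 or foxl2l+/+ replicate 3 (adjusted p 0.0513 to 0.0565). Tfap2a, the remaining gene of this list that fell, did so by 1.34 ± 0.43 (SE, adjusted p = 0.031). Its call ended in 7 of 14 alternatives (adjusted p 0.0583 to 0.136). Eve1 and gata2a, which mark ventral tissue of the embryo, were also named with their values known, and neither passed, at -1.48 ± 0.64 for eve1 (SE, adjusted p = 0.0948) and -0.80 ± 0.33 for gata2a (SE, adjusted p = 0.0863). Under library totals the median of all genes lay at 0.252, against 0.048 with TMM, so estimates of that size or smaller depend on the scaling.

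**Figure D5:**
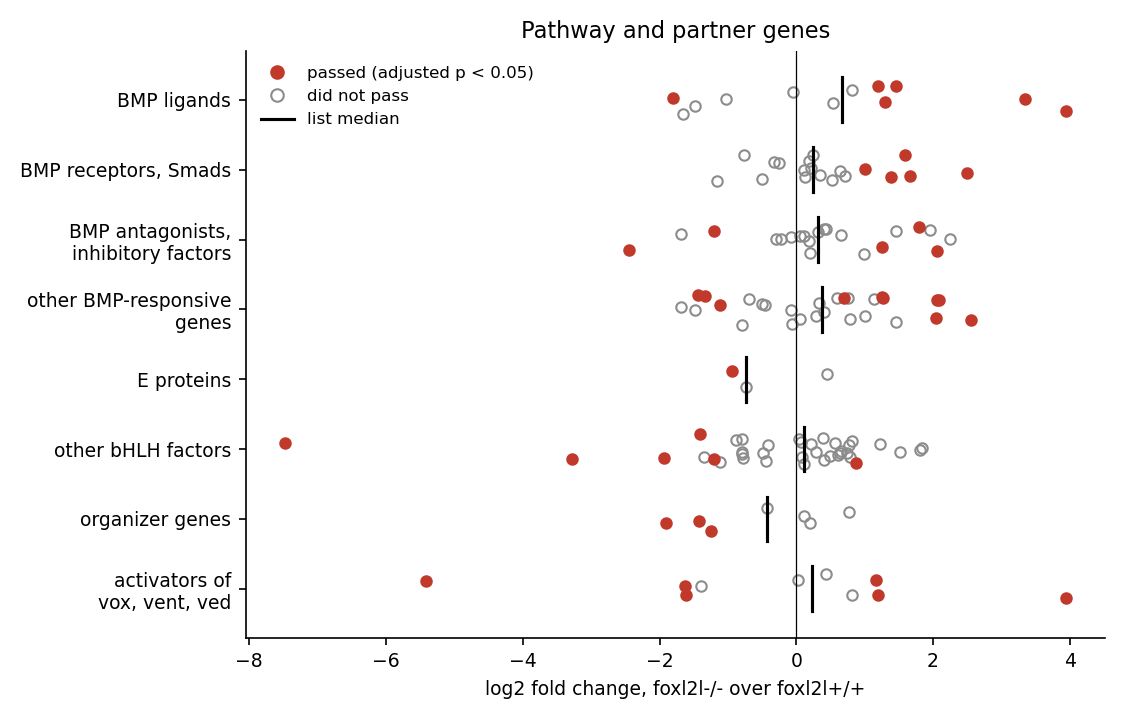
Log2 fold change of foxl2l-/- over foxl2l+/+ for each tested gene of the 8 pathway and partner lists, filled red where it passed and open where it did not, with a black bar at the list median. Medians run from -0.73 for the E proteins to 0.68 for the BMP ligands, and the lowest point is figla at -7.48.

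E proteins, the partners that Id proteins bind, were scarce in both genotypes. Summed over tcf3a, tcf3b, tcf12 and the gene listed as TCF4, they were at 11.2, 12.6 and 15.8 TPM in foxl2l-/- and 17.7, 16.6 and 15.5 TPM in foxl2l+/+ libraries. The summed Id level was 27.6, 24.4 and 20.3 times that sum in foxl2l-/- libraries. In foxl2l+/+ libraries it was 2.73, 3.54 and 3.42 times that sum. Since the Id genes were chosen with their difference known, this RNA ratio adds no separate result and gives no protein ratio. The E protein sums overlapped between the genotypes. Of the 3 that could be tested 1 fell and 2 did not pass, with TCF4 below the filter, and none was higher at an unadjusted p below 0.05 in edgeR, DESeq2 or limma. The share that fell was 33.3%, against 15.8% of all tested genes, and with only 3 tested nothing is read from it. Tcf3b, the most abundant, was at 6.44, 6.56 and 9.32 TPM in foxl2l-/-, against 12.6, 12.3 and 10.7 TPM in foxl2l+/+ libraries, and fell by 0.94 ± 0.21 (SE, adjusted p = 0.00539). Its call ended with limma-trend on TPM (adjusted p = 0.0765). Tcf3a (-0.73 ± 0.49 SE, adjusted p = 0.289) and tcf12 (0.45 ± 0.32 SE, adjusted p = 0.32) did not pass.

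Of 37 tested tissue-specific bHLH factors, which can pair with E proteins, 1 rose, 5 fell and 31 did not pass. Their median was 0.11. As shares, 2.7% rose and 13.5% fell, against 15.7% and 15.8% of all tested genes. The oocyte factor figla fell by 7.48 ± 0.36 (SE, adjusted p = 1.77e-07), to 1.86, 1.83 and 4.89 TPM in foxl2l-/- against 502, 358 and 395 TPM in foxl2l+/+ libraries. Figla alone accounted for most of the summed level of this list in foxl2l+/+ cells, at 418 of 600.0 TPM. Atoh1a, a factor of hair cell and cerebellar precursors, fell by 3.28 ± 0.38 (SE, adjusted p = 7.40e-05), to 1.6, 2.0 and 3.82 TPM in foxl2l-/- against 27.6, 13.5 and 18.5 TPM in foxl2l+/+ libraries. The row ascl1b_1, of a proneural factor, rose by 0.87 ± 0.21 (SE, adjusted p = 0.00724). The other row of that gene, ascl1b_2, did not pass (0.04 ± 0.45 SE, adjusted p = 0.962). Olig2, TCF24 and hand2 also fell, and the calls of olig2 and TCF24 each ended without foxl2l-/- replicate 2 or foxl2l+/+ replicate 1 or 3 (adjusted p up to 0.069). The call of hand2 ended without foxl2l-/- replicate 1 or 2 or foxl2l+/+ replicate 1 or 3 (adjusted p up to 0.107), and also under library totals (adjusted p = 0.0611) or limma-trend on TPM (adjusted p = 0.0873). Without foxl2l-/- replicate 2, or without foxl2l+/+ replicate 1, 3 of the E proteins and tissue-specific factors together passed as lower in place of 6. Under library totals 4 members of the 2 bHLH lists passed as higher in place of 1, and with limma-trend on TPM 7 did.

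Genes around vox, vent and ved in the embryonic circuit went in both directions. Of 7 organizer genes that these repressors act on in the gastrula, 3 fell and 4 did not pass, with a median of -0.43. None was higher at an unadjusted p below 0.05 in edgeR, DESeq2 or limma. The share that fell was 42.9%, against 15.8% of all tested genes, in a list of only 7. Goosecoid, gsc, was at 17.0, 12.9 and 17.9 TPM in foxl2l-/-, against 35.4, 35.6 and 37.5 TPM in foxl2l+/+ libraries, and fell by 1.43 ± 0.23 (SE, adjusted p = 0.00071). The secreted Wnt antagonist gene frzb fell by 1.90 ± 0.31 (SE, adjusted p = 0.000653), to 7.22, 6.17 and 4.19 TPM in foxl2l-/- against 15.3, 22.4 and 17.8 TPM in foxl2l+/+ libraries. The notochord gene noto fell by 1.25 ± 0.43 (SE, adjusted p = 0.0413), and its call ended in 8 of 14 alternatives, with adjusted p of 0.0531 to 0.107, among them the fits without any 1 library except foxl2l+/+ replicate 2. Chrd, dharma, dkk1b and nog1 did not pass.

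Among 10 rows for genes that activate vox, vent or ved in the embryo, 3 rose, 3 fell and 4 did not pass. The median was 0.23. As shares, 30.0% rose and 30.0% fell, against 15.7% and 15.8% of all tested genes. Bmp2b and bmp4 rose, as given above, and the SoxB1 gene sox19b rose by 1.16 ± 0.35 (SE, adjusted p = 0.0257), although its groups overlapped at 18.6, 37.9 and 47.4 TPM in foxl2l-/- and 20.6, 9.56 and 8.46 TPM in foxl2l+/+ libraries. The call of sox19b ended without replicate 2 or 3 of either genotype (adjusted p 0.0722 to 0.113). The pluripotency factor gene pou5f3, which activates vox and vent in the blastula, fell by 1.63 ± 0.30 (SE, adjusted p = 0.00153), to 3.59, 5.14 and 4.07 TPM in foxl2l-/- against 12.5, 8.15 and 12.7 TPM in foxl2l+/+ libraries. Nanog fell by 1.61 ± 0.23 (SE, adjusted p = 0.00027). The row wnt8a_1, of a ventral Wnt ligand, received 37, 0 and 0 counts in foxl2l-/- and 704, 380 and 211 in foxl2l+/+ libraries and fell, although not in DESeq2 (adjusted p = 0.0505). Its foxl2l-/- counts all came from replicate 1. The other row of that gene, wnt8a_2, did not pass (-1.40 ± 0.59 SE, adjusted p = 0.0878).

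The genes with a profile most like that of id1 were sought among the 9877 named genes that averaged 10 CPM or more in one genotype, by Euclidean distance between centred log2 CPM values over the 6 libraries. In order of distance these were casp6l1 (0.64), named for similarity to caspase-6, then vent (0.679), fam219ab (0.774), the p38-family kinase gene mapk12b (0.807) and the mitochondrial ADP/ATP carrier gene slc25a4 (0.839). Casp6l1 was at 23.5, 23.1 and 25.6 TPM in foxl2l-/- and 1.91, 2.07 and 1.40 TPM in foxl2l+/+ libraries. Vent was nearer to id1 than the other Id genes were. Of those, id4 came at position 150, id3 at 262, id2b at 312 and id2a at 464. For vox the nearest were ccdc169 (0.785), the intermediate filament gene inaa (0.834), the membrane-anchored semaphorin gene sema7a (0.998), the cholesterol hydroxylase gene cyp46a1.2 (1.06) and the midkine gene mdkb (1.08), with id1 at position 10 and vent at 19. By this measure genes with a like difference between genotypes lie close together. Id1, vox and vent were themselves chosen with that difference known. Log2 fold changes were 3.95 for id1 and 3.65 for vent, against 1.45 to 2.45 for the other Id genes. All the nearest genes named here met the required level only in foxl2l-/- cells. No link between genes is read from these distances. Ved was below the level required.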

How the data were processed

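The deposited table holds the authors' raw total counts and, per the file headers, TPM, a level corrected for length and depth. The submitters' processing notes name GRCz11 as the build and bcl2fastq as a tool. An aligner, counting program, annotation release or strand setting was not given in the sources used here. A further 12 columns of per-library values were not used. Names absent under their current symbol were matched, where possible, by identifier, letter case or a copy suffix, and foxl2l is listed under an older clone name. The listed names smad4b, twsg1b, sohlh1, sohlh2, lyl1, atoh1b and col3a1a found no match and are not in the counts.

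Genes passing filterByExpr (23576) were scaled by TMM and fitted with glmQLFit in edgeR 4.0.16 (R 4.3.3), and the genotype term was tested by glmQLFTest, with p adjusted over all of them (Benjamini-Hochberg). The SE is the unshrunken log2 fold change divided by the square root of the F statistic. The steps were tested on simulated data. Counting intervals understate the error, since the amplified reads carry no molecular identifiers. Library pairs of a genotype differed by 33.17 to 120.9 in chi-square per degree of freedom, so none was counted as a copy.

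The members and all gene lists were chosen with earlier results of these data known. Named genes are the members, foxl2l, up to 5 genes per pathway list by smallest p (all E proteins), the 5 nearest profiles to id1 and to vox, and the most abundant 2 of each marker list. Other genes, including neighbours by position, were named after their values were seen. Alternatives were RLE factors, library totals, no low-count filter, 10 counts in 3 libraries, DESeq2 1.42.0, limma 3.58.1 (voom with quality weights, and trend on log2(TPM + 1)), a block for the replicate number, and fits that each drop 1 library.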

Additional observations from a re-analysis of the deposited data

How the results depend on the processing

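All 8 members passed and were higher in foxl2l-/- cells in each of the 14 alternatives. The alternatives refit the counts by which the members were chosen, so nothing is read from their passing again. In the main fit 31.6% of all tested genes passed in either direction and 15.7% passed as higher. The lowest estimates on the log2 scale came from limma-trend on log2(TPM + 1) for ved (1.69), vent (2.96) and vox (3.97), a scale that understates changes of low genes, and the highest for ved was 2.90 without foxl2l-/- replicate 3. With library totals 4882 genes passed as higher and 2723 as lower, against 3710 and 3733 with TMM. Leaving out 1 library gave 4 to 11 lower calls in the BMP lists, against 6, the highest without foxl2l-/- replicate 3, and limma-voom gave 12. In the bHLH lists 1 call was higher, against 4 with library totals, 2 with DESeq2, 4 with limma-voom and 7 with limma-trend on TPM. Leaving out 1 library gave 1 to 2 higher and 3 to 6 lower calls there, the 3 without foxl2l-/- replicate 2 or without foxl2l+/+ replicate 1. In the lists of organizer genes and activators 3 calls were higher, and 2 to 3 when 1 library was left out. The cause was not tested. The replicate number as a block gave 7199 calls over all genes, against 7443, and 15 higher calls in the BMP lists, against 18. Among the named genes it ended the calls of bmpr2b (adjusted p = 0.083), bmp6 (adjusted p = 0.0775) and noto (adjusted p = 0.0677). Deviations of same-numbered libraries from their group means correlated at -0.0376, 0.0502 and 0.0366, so no effect shared by number was seen. With 3 libraries per genotype these values cannot decide whether same-numbered libraries were handled together. Depth limits ved and foxl2l+/+ values of vent most.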
